A study of Mus musculus with 8 samples.

Results

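The second week of culture was examined in cardiac fibroblasts kept in osteogenic differentiation medium, by setting the libraries of day 14 against those of day 7. The cells came from wild-type C57BL/6J mice aged 8 weeks. RNA was sequenced from cells not yet given the medium (day 0) and from cells kept in it for 7, 14 or 21 days, 2 libraries a day. The 4 libraries of days 7 and 14, out of 8 in the series, make the comparison, and 13527 of the 24015 genes in the deposited table were tested, those with 10 or more normalized counts in 2 or more of the 8. A normalized count is the number of reads of a gene divided by a size factor for its library. Every culture of days 7 and 14 had the medium, so a change with the medium and a change with days in culture cannot be told apart here. The composition of the medium is not given in the sources used here, and no label tells whether a day's pair of libraries stems from separate cultures or animals, so the p-values reflect the spread between libraries, which may be technical.

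Cardiac fibroblasts are the matrix-producing cells of the heart: they make collagens, fibronectin and basement membrane proteins, and they can turn into contractile myofibroblasts. In bone, osteoblasts arise from mesenchymal precursors under the transcription factors Runx2 and Sp7. They lay down type I collagen and mineralize it with tissue-nonspecific alkaline phosphatase, which removes the mineralization inhibitor pyrophosphate. The same precursors can give rise to adipocytes and chondrocytes, and genes of all these fates were followed beside those of matrix, cell division, metabolism and other cell types.

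The libraries held 19399248 and 20225968 reads at day 7 and 19199575 and 14932213 at day 14. Over tested genes, the log2 values of the pair of libraries of a day correlated at 0.994 at day 7 and 0.988 at day 14, across genes, which are not independent replicates. Fibroblast genes were detected throughout, with 9352 and 9659 at day 7 and 5416 and 3864 at day 14 for the growth factor receptor Pdgfra, in normalized counts. The defining late osteoblast genes were at or near 0: Sp7, the bone sialoprotein gene Ibsp and Mepe had no read in these 4 libraries, and the osteocalcin gene Bglap had 5 reads at day 7 and 7 at day 14. Neither time point therefore showed the defining markers of mature osteoblasts.

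Of the 13527 tested genes, 7038 (52.0%) changed from day 7 to day 14 at an adjusted p under 0.05, of which 3385 (25.0%) rose and 3653 (27.0%) fell (limma on log2 of the normalized count plus 1, Benjamini-Hochberg over all tested genes). A change of at least 2-fold was found for 728 rises (5.38%) and 687 falls (5.08%). Without day 14 replicate 2 the counts of 2-fold changes were 419 and 422, and without day 14 replicate 1 there were 1064 such falls. Genes whose day 7 and day 14 libraries did not overlap made up 78.1% of all tested genes. Of the 7038 called genes 7037 did not overlap, so a lack of overlap adds nothing to a call. The changes ran with transcript length: the day 14 libraries were shifted towards genes with short transcripts. Over 13421 genes with a known length, the log2 difference changed by -0.37 for each doubling of the longest transcript. The slope was -0.295 in day 14 replicate 1 and -0.441 in replicate 2, each against the mean of day 7, and -0.147 between the 2 day 14 libraries themselves. The pair of day 7 libraries differed by a slope of -0.0189.

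With genes divided into 5 classes of transcript length, in the shortest (64 to 1925 bases) 57.1% of genes rose and 3.91% fell. In the longest class (5216 to 123179 bases) 4.92% rose and 59.8% fell. Genes of the shortest class took 18.6% and 18.7% of the signal at day 7 and 26.0% and 29.5% at day 14, whereas the share of the longest class went from 20.3% in both libraries to 13.7% and 11.8%. What produced the relation with length was not tested. It was therefore handled by computing each change in 3 ways: as measured, after removal from each library of a smooth trend on length and GC content of the longest transcript, and after the same removal with the principal transcript. A principal transcript was annotated for 20494 of the 23640 genes with a length. The other genes kept their longest transcript, so for them the third fit is no separate check of length. With the trend of the longest transcript removed, 42.0% of genes changed, 18.8% higher and 23.2% lower, and the length classes came closer, with 18.0% higher and 19.5% lower in the shortest and 19.1% and 26.3% in the longest. In all 3 fits together, 1467 genes (10.9%) rose and 2025 (15.1%) fell. These shares are the background against which the counts of each gene group stand. Values below are given as measured unless the removal is named. A log2 difference is on the scale of the value plus 1, day 14 minus day 7, with its standard error, and is understated for genes near 0.

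**Figure D1:**
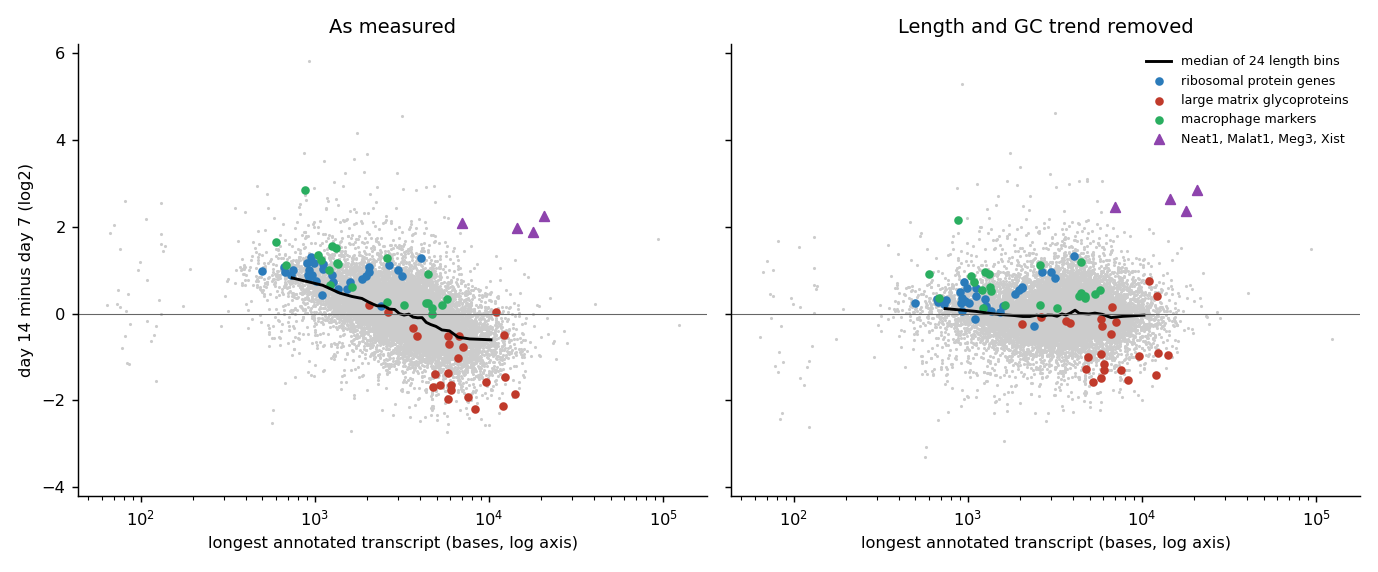
Each grey point is a tested gene, with the length of its longest transcript in bases (log axis) across and its log2 difference, day 14 minus day 7, up, as measured on the left and after removal of the length and GC trend on the right. The median line falls with length on the left, with a slope of -0.37 per doubling, and lies near 0 on the right, where large matrix glycoproteins still lie mostly below it and Neat1, Malat1, Meg3 and Xist (triangles) above it.

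**Figure D2:**
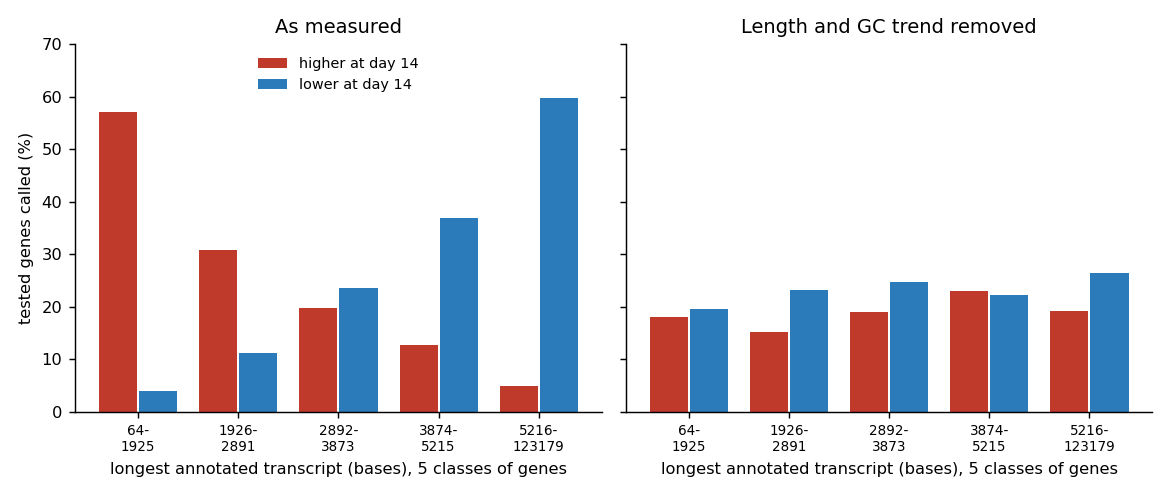
Bars give the percent of tested genes called higher and lower at day 14 in each of 5 classes of transcript length, as measured and after removal of the trend. As measured, the share called higher drops from 57.1% in the shortest class to 4.92% in the longest, and after removal the 2 classes hold 18.0% and 19.1%.

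The rises that were largest in size included an adipokine, a gelatinase, a phosphatase, an amino acid transporter and a macrophage scavenger receptor. Cfd, the adipocyte-secreted complement factor D, had no read in either day 7 library and 61.0 and 50.3 normalized counts at day 14 (110 reads in all). Counted against a floor of 3 reads over day 7, it was at least 41.7-fold higher. Mmp9, a gelatinase made by osteoclasts and other myeloid cells, went from 5.47 and 2.67 to 98.4 and 129.7, a log2 difference of 4.55 ± 0.53 (adjusted p = 6.07e-05) that was 4.61 with the trend removed. Acp5, the tartrate-resistant acid phosphatase of osteoclasts and macrophages, had 26.4 and 18.7 at day 7 and 159 and 194 at day 14 (2.93 ± 0.35, adjusted p = 6.91e-05). Each of these genes separated the 2 days completely, which the rule that named the largest rises required.

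As3mt, the arsenite methyltransferase, rose from 10.9 and 10.7 to 199 and 217 normalized counts, a log2 difference of 4.14 ± 0.23 (3.69 after removal). Slc38a5, a glutamine and neutral amino acid transporter, rose from 18.2 and 22.3 to 272 and 269 (3.68 ± 0.44, adjusted p = 6.25e-05). Both had nearly equal values in the 2 libraries of each day. Rdm1 (3.52), the sodium-proton antiporter gene Slc9b2 (2.93), the matricellular gene Thbs4 (2.87), the sulfotransferase gene Sult5a1 (2.84) and the small nucleolar RNA host gene Snhg11 (2.71) also rose in all 3 fits. Marco, a macrophage scavenger receptor, had 23.7 and 18.7 at day 7 and 96.6 and 452 at day 14. Its rise was unequal in the day 14 libraries: the log2 difference was 3.25 ± 0.71, 4.36 without replicate 1 of day 14 and 2.14 without replicate 2, and with the trend removed it did not pass without replicate 2 (adjusted p = 0.0598). Ifi27l2a, a short interferon-induced gene, had 631 and 269 at day 7 and 4878 and 2024 at day 14 (log2 difference 2.93 ± 0.45, from 2.29 without day 14 replicate 1 to 3.56 without day 14 replicate 2), the reverse order of the day 14 libraries.

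**Figure D3:**
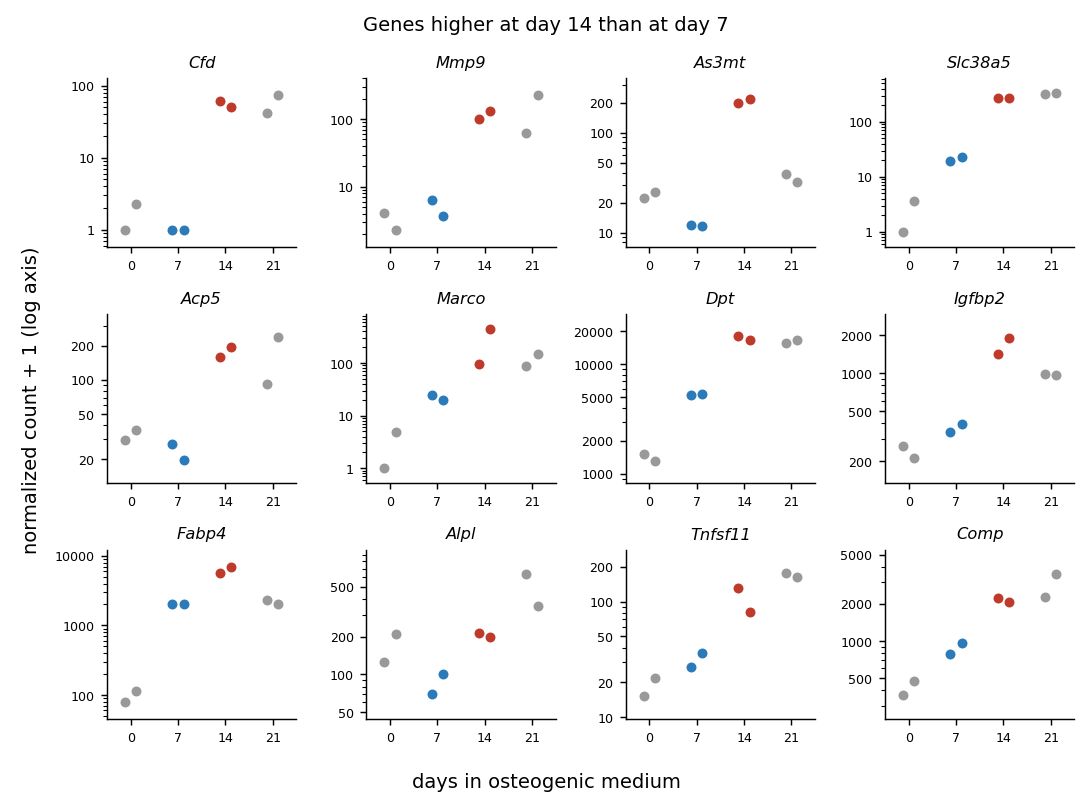
Normalized count plus 1 (log axis) of 12 genes in each of the 2 libraries at days 0, 7 (blue), 14 (red) and 21. In each panel both day 14 points lie above both day 7 points; for Cfd the day 7 libraries are at 0 reads and day 14 is at 61.0 and 50.3 normalized counts.

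Markers of resident fibroblasts, the undifferentiated matrix fibroblasts of tissue, were among the groups that rose. Of 19 tested markers 13 rose and 2 fell, with a median of 0.68 against -0.00053 for all genes. After removal 11 rose and 3 fell (median 0.46), and 9 rose and 2 fell in all 3 fits. Dpt, which encodes the collagen-binding matrix protein dermatopontin, had 5209.5 and 5364 at day 7 and 18113 and 16849 at day 14 normalized counts, a log2 difference of 1.72 ± 0.10 (adjusted p = 2.71e-06) and 1.27 after removal. Clec3b (tetranectin) had 116 and 107 at day 7 and 287 and 276 at day 14 (1.33 ± 0.20), and the stem cell antigen gene Ly6a had 5544 and 5029.9 at day 7 and 14791 and 11138 at day 14 (1.28 ± 0.15, 0.56 after removal). For these genes the libraries of the 2 days did not overlap, as for nearly all called genes. The cell-surface sialomucin gene Cd34 (0.92), the ferritin receptor gene Scara5 (0.94), Lum (0.85), Mfap5 (0.84) and Dpep1 (0.68) also rose in all 3 fits. Pdgfra fell by 1.05 on the log2 scale (-0.56 after removal), as did Col14a1 by 1.31. Tcf21, a transcription factor of epicardial and fibroblast lineage, rose by 0.69, but 0.17 with the principal transcript did not pass (adjusted p = 0.226).

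Adipocyte genes changed in part. Over all tested genes 25.0% rose and 27.0% fell as measured, and 10.9% and 15.1% did so in all 3 fits. Of 20 tested adipocyte genes 6 rose as measured, near that share, and 1 fell, and in all 3 fits 5 rose and 0 fell. The rises and falls as measured were 5 and 0 without day 7 replicate 1, 4 and 0 without day 7 replicate 2 and 5 and 0 without day 14 replicate 2. Besides Cfd, Adipoq, the gene of the adipocyte hormone adiponectin, went from 0.911 and 2.67 to 20.0 and 21.0 (3.02 ± 0.60). Fabp4, a fatty acid carrier of adipocytes and macrophages, had 2046 and 2065 at day 7 and 5671 and 6967 at day 14, a log2 difference of 1.61 ± 0.15 that was 1.67 with the longest transcript and 0.71 with the principal one. Car3, the carbonic anhydrase abundant in fat, had no read at day 7 and 21 at day 14 (at least 7.95-fold higher). Pparg, the master regulator of adipocyte differentiation, had 67.4 and 51.7 at day 7 and 96.6 and 79.5 at day 14 (0.56 ± 0.26, adjusted p = 0.0873) and did not pass. Cebpa (0.09) and the lipase gene Lpl (-0.23) did not pass either, and of the lipid droplet genes Plin1 had 1 read at day 7 and 10 at day 14, and Cidec 1 and 7. Cebpd, an early factor of the adipocyte programme, rose by 0.29 in all 3 fits, but as measured it did not pass without day 7 replicate 1, day 7 replicate 2 or day 14 replicate 2 (adjusted p = 0.186, 0.0662 and 0.0809).

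Regulators of osteoblasts were divided. Of 12 tested, 3 rose and 2 fell, and 2 rose and 1 fell in all 3 fits. The counts became 3 and 0 without day 7 replicate 1, 3 and 1 without day 7 replicate 2 and 4 and 1 without day 14 replicate 2. Tnfsf11, which encodes RANKL, the osteoclast-inducing cytokine of osteoblasts and stromal cells, had 26.4 and 34.8 at day 7 and 130.3 and 79.5 at day 14 (1.71 ± 0.27, adjusted p = 0.000342, 1.33 after removal). Pth1r, the parathyroid hormone receptor, rose by 1.25 from 78.3 and 93.6 to 211 and 199.9. Runx2, the transcription factor that starts osteoblast differentiation, had 210.4 and 265 at day 7 and 217 and 162 at day 14 and no called change (-0.33 ± 0.20, adjusted p = 0.183, 0.18 after removal). Cbfb, its partner subunit, fell by 0.31 as measured (-0.57 after removal), a fall that did not pass as measured without day 7 replicate 1 or 2 (adjusted p = 0.101 and 0.0734). The RANKL decoy receptor gene Tnfrsf11b had a difference of 0.15 that did not pass.

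Genes that set the phosphate and pyrophosphate balance moved in both directions. Of 15 tested mineral genes 6 rose and 5 fell (3 and 4 after removal), and 3 rose and 4 fell in all 3 fits. Alpl, the alkaline phosphatase, went from 68.3 and 99.8 to 214 and 198 normalized counts (1.31 ± 0.28, adjusted p = 0.00236, 1.22 after removal), a 2.47-fold rise. Its level was 125 and 209 at day 0 and 630.2 and 351 at day 21. Ank, which raises pyrophosphate outside the cell, fell from 1426 and 1434 to 1077 and 929 (-0.52 ± 0.10). Enpp1, which makes pyrophosphate, fell as measured (-0.59), but -0.15 after removal did not pass (adjusted p = 0.26). The phosphate transporter gene Slc20a1 rose by 0.58 and its relative Slc20a2 fell by 0.54, both in all 3 fits. Fam20c, the kinase of secreted bone phosphoproteins, fell by 0.90. Mgp, the vitamin K-dependent inhibitor of soft-tissue calcification, had 147679 and 143360.0 at day 7 and 224306 and 222564 at day 14. Its difference of 0.62 ± 0.13 became -0.16 after removal (adjusted p = 0.334). The call of a rise of Mgp therefore depended on the length correction, and no fall was called after it.

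Among bone matrix genes, 4 of 8 tested members rose and 2 fell as measured (2 and 2 without day 7 replicate 1 and 2 and 2 without day 7 replicate 2), 1 rose and 3 fell after removal, with 1 and 2 in all 3 fits. Omd (osteomodulin), a bone-enriched leucine-rich proteoglycan, had 100.2 and 82.9 at day 7 and 236 and 191 at day 14 (1.21 ± 0.20, 0.63 after removal). Spp1 (osteopontin) rose by 0.89 as measured, from 6119.5 and 5058 to 9546 and 11082, but 0.25 after removal did not pass (adjusted p = 0.0958). Cartilage genes were likewise divided, with 2 of 12 higher and 4 lower (1 and 4 without day 7 replicate 1, 1 and 4 without day 7 replicate 2 and 1 and 4 without day 14 replicate 2), and 2 and 2 after removal. Comp, the cartilage oligomeric matrix protein, rose from 783 and 968 to 2224 and 2072 (1.30 ± 0.18, 1.27 after removal). Sox9, the chondrocyte transcription factor, fell from 3774 and 3710.5 to 2067 and 1819 (-0.95 ± 0.11, adjusted p = 6.53e-05, -0.77 after removal). Col11a1, a fibrillar collagen of cartilage, fell by 1.64. Acan (0.33) and Col2a1 (-0.36) did not pass.

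Extracellular matrix genes were lower at day 14. None of the 19 collagens rose and 17 fell (median -1.14), and 12 fell in all 3 fits (median -0.66 after removal). Col1a1, the main chain of type I collagen, had normalized counts of 64014 and 73189.8 at day 7 and 24910.2 and 19925 at day 14, a log2 difference of -1.62 ± 0.18 (adjusted p = 4.21e-05) that was -0.99 after removal with the principal transcript. Col4a2, a basement membrane collagen, had 89824 and 100084 at day 7 and 27060.4 and 20652 at day 14 (-2.00 ± 0.17, -1.30 after removal). In both genes the libraries of the 2 days did not overlap, as in nearly all called genes. Col4a1 (-1.81), Col5a1 (-1.75), Col6a1 (-1.44), Col6a3 (-1.35) and Col1a2 (-1.04) also fell in all 3 fits. The falls of Col3a1 (-0.72, -0.26 after removal) and Col12a1 (-0.91, -0.26) passed only as measured.

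Large matrix glycoproteins fell likewise, 18 of 24 with none higher (median -1.38) as measured (1 and 16 without day 14 replicate 2) and 14 in all 3 fits (median -0.92 after removal). Fn1, fibronectin, went from 111374 and 126934 to 29427 and 22916 (-2.19 ± 0.21, adjusted p = 2.41e-05, -1.54 after removal), 4.58-fold lower. Fbn1, the microfibril protein fibrillin-1, went from 14526 and 16651 to 4025 and 3166 (-2.12 ± 0.14), and Lamb1, a laminin chain of basement membranes, from 8435 and 9631 to 2534 and 2127 (-1.96 ± 0.13). Their levels at day 21 were 66708 and 105880.0 for Fn1, 8613 and 10712 for Fbn1 and 4419.7 and 5544 for Lamb1, above day 14 in both libraries. Postn, the matricellular protein periostin of activated fibroblasts, fell by 1.64, and its change was much the same after removal (-1.57). Lamc1 (-1.92), the laminin-binding nidogen gene Nid1 (-1.76), Fbln2 (-1.70) and the perlecan gene Hspg2 (-1.86) fell in all 3 fits. Tnc (-0.77) did so only as measured, and Fbn2 (0.04) and Efemp1 (0.19) had no called change.

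Genes that process collagen fell with it. Of 16 crosslinking and folding genes 11 fell and 0 rose, with 10 falls in all 3 fits. P4ha1, the catalytic subunit of collagen prolyl 4-hydroxylase, had 8189 and 8182 at day 7 and 3523 and 3297 at day 14 (-1.26 ± 0.09, -1.17 after removal). The lysyl hydroxylase gene Plod1 (-0.96) and the lysyl oxidase genes Loxl1 (-0.69) and Loxl4 (-0.95) fell, and the collagen chaperone gene Serpinh1 had -0.26 as measured, not passing, and -0.41 after removal, which passed. Small leucine-rich proteoglycans were divided, 4 of 9 higher and 3 lower (3 and 4 after removal): Lum (0.85) and Omd rose in all 3 fits, and Bgn (-0.97), Fmod (-0.77) and Prelp (-0.79) fell. Of 20 proteases and inhibitors 5 rose and 13 fell. The metalloproteinase genes Mmp2 (-0.89) and Mmp14 (-1.06) and the ADAMTS protease genes Adamts12 (-2.06) and Adamts4 (-1.19) fell in all 3 fits, while Mmp9, Mmp23 (1.00) and the inhibitor genes Timp1 (0.95) and Timp4 (2.22) rose.

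**Figure D4:**
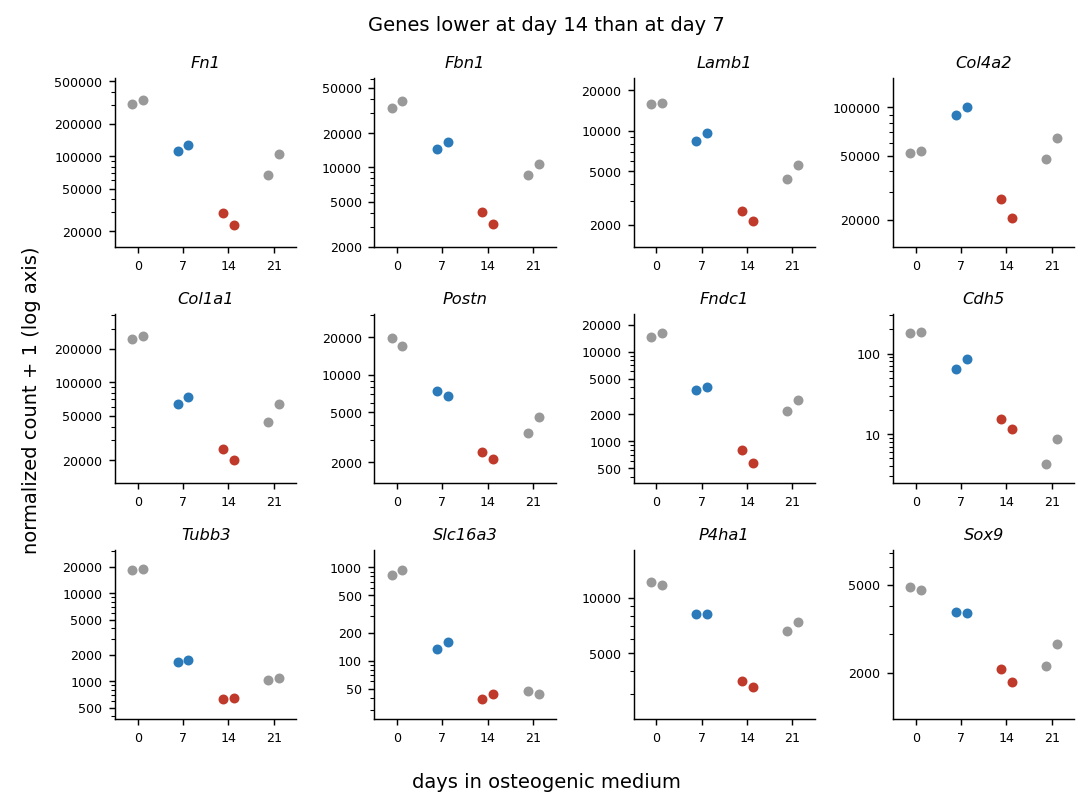
Normalized count plus 1 (log axis) of 12 genes in each of the 2 libraries at days 0, 7 (blue), 14 (red) and 21. Both day 14 points lie below both day 7 points in every panel; Fn1 goes from 111374 and 126934 at day 7 to 29427 and 22916 at day 14 and stands at 66708 and 105880.0 at day 21.

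Contractile genes moved in both directions. Of 22 tested 7 rose and 8 fell (3 and 8 without day 7 replicate 2 and 2 and 8 without day 14 replicate 2), and 5 rose and 7 fell in all 3 fits. Tagln (transgelin) had 2338 and 2332 at day 7 and 4269 and 5388 at day 14 (1.04 ± 0.11, 0.61 after removal), and the tropomyosin gene Tpm2 had 1909 and 1834 at day 7 and 3440.3 and 4749.8 at day 14 (1.11 ± 0.17). Des, the muscle intermediate filament desmin, rose by 1.13 and Myh11, the smooth muscle myosin heavy chain, by 0.80, but neither passed without day 14 replicate 2 (adjusted p = 0.0754 and 0.0936), Des not without day 7 replicate 1 (0.0948) and Myh11 not without day 7 replicate 2 (0.174). Vcl (vinculin), which anchors actin at focal adhesions, fell from 7127 and 6805 to 2571 and 1937 (-1.64 ± 0.14, -1.29 after removal), as did the actin crosslinker gene Actn1 by 1.25 and the nonmuscle myosin gene Myh9 by 1.20. Acta2, the smooth muscle actin that marks myofibroblasts, had 7615 and 7680.4 at day 7 and 7294 and 8733 at day 14 and no called change as measured (0.06 ± 0.11, adjusted p = 0.66). After removal it was lower with the longest transcript (-0.28, adjusted p = 0.0266) and did not pass with the principal one (-0.21, adjusted p = 0.0831).

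Macrophage markers rose in part. Of 22 tested 11 rose and none fell (median 0.96), with 8 in all 3 fits (median 0.53 after removal). Their summed level was 15169 and 12216 normalized counts at day 7 and 24822 and 45965 at day 14, highest in day 14 replicate 2. This sum was mostly Lyz2 in all 4 libraries. In RNA from whole cultures, a change in the number of cells of a type and a change in RNA per cell cannot be told apart. Lyz2, the macrophage lysozyme, had 9187 and 7306 at day 7 and 16975 and 31689.5 at day 14 (2.83-fold higher, adjusted p = 0.000186; log2 difference 0.91 after removal). Its near-identical copy Lyz1 moved with it (1.56) and may share reads. Tyrobp, a signalling adaptor of myeloid cells, rose by 1.65 from 138 and 120.4 to 286 and 579, and the complement component genes C1qa (1.35) and C1qb (1.24), the Fc receptor gene Fcgr3 (1.17) and the cathepsin gene Ctss (1.14) rose in all 3 fits. Without day 14 replicate 2 the differences of C1qa, C1qb and Fcgr3 were 0.80, 0.72 and 0.74, and without replicate 1 they were 1.89, 1.77 and 1.59. Aif1 had 3 reads at day 7 and 30 at day 14, a ratio of 11.4 (95% counting interval 3.53 to 58.2). Defining markers of the lineage did not pass: Ptprc, the CD45 gene (0.34), Csf1r (361 and 323 at day 7 and 272 and 427 at day 14), Emr1 (0.19) and Cd68 (0.66). With day 14 replicate 2 left out, 9 rose as measured, but with the trend removed as well 1 rose, so the count after removal rested on that library.

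The Acp5 and Mmp9 rises belonged also to the osteoclast markers, of which 3 of 7 tested rose and 2 fell. Nfatc1, the transcription factor of osteoclast formation (-0.78), and Itgb3, the osteoclast integrin subunit (-1.09), fell in all 3 fits. Ctsk (cathepsin K) rose by 0.56 only as measured (0.05 after removal). Dcstamp, needed for osteoclast fusion, had no read at day 7 and 7 at day 14, and Calcr had 1 and 1. The part of macrophages in the Acp5, Mmp9 and Marco rises was not tested. Of 11 lymphocyte markers 0 reached the level for testing.

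The promoters of macrophage markers were searched for GAGGAA, the core of the site of PU.1, a transcription factor of myeloid cells. Both strands of the 250 bases before each RefSeq start were read. It was found in 11 of the 17 tested markers that had an entry (64.7%) and in 25.9% of 27025 genes with a promoter. Among the markers the share was 5 of 8 that rose and 6 of 9 that did not pass. The promoters of C1qb (GRCm38.p6, chr4:136886201-136886450, minus strand) and Ctss (chr3:95526536-95526785, plus strand) are shown as members that rose, 5′ to 3′ towards the gene, with the motif or its reverse complement in capitals. A match is a description of the sequence and no evidence of binding.
C1qb: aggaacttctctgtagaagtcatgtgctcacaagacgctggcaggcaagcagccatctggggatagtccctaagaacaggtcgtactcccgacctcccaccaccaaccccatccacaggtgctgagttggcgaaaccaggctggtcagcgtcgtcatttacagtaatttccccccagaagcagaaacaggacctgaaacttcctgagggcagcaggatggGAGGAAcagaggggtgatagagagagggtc
Ctss: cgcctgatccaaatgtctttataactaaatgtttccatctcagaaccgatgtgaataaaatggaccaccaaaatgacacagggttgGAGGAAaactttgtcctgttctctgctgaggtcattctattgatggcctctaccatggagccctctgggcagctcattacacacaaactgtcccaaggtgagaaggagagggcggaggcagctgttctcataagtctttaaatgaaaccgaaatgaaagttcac

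Interferon response genes rose in part and unevenly between libraries. Of 25 tested 9 rose and 1 fell (median 0.30), and 5 rose and 0 fell in all 3 fits. The rises and falls were 10 and 0 without day 7 replicate 1, 4 and 1 without day 7 replicate 2, 6 and 2 without day 14 replicate 1 and 17 and 0 without day 14 replicate 2. Oas1a, an antiviral oligoadenylate synthetase, had 106 and 68.6 at day 7 and 241 and 167 at day 14 (1.23 ± 0.27, adjusted p = 0.0028, 0.88 after removal). Isg15, an interferon-induced ubiquitin-like modifier, had 468 and 349 at day 7 and 1214 and 625 at day 14 (1.10 ± 0.27); after removal it was 0.39 and did not pass, nor did it pass without day 7 replicate 2 (adjusted p = 0.051). Day 7 replicate 1 and day 14 replicate 1 were each the higher of their pair for Isg15. Ifi35 (0.94) rose in all 3 fits, whereas Ifit1 (0.61) and Rsad2 (0.12) did not pass. Ddx58, the RNA sensor RIG-I, fell by 0.60, but not without day 7 replicate 1 or day 14 replicate 2 (adjusted p = 0.134 and 0.179).

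The letters GAAA, any 2 bases and GAAA again, a form of the interferon-stimulated response element, were found on either strand in the promoters of 9 of 19 tested interferon genes with a RefSeq entry (47.4%) and of 3.46% of all 27025. They were in 4 of 7 that rose and 5 of 11 that did not pass. Isg15 (GRCm38.p6, chr4:156200819-156201068, minus strand) and Oas1a (chr5:120907526-120907775, minus strand) are shown in the same way, as members that hold the letters and rose as measured.
Isg15: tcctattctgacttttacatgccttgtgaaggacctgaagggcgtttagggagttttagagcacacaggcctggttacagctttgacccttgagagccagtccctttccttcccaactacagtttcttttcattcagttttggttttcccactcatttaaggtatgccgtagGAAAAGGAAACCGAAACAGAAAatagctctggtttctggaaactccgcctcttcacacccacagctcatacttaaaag
Oas1a: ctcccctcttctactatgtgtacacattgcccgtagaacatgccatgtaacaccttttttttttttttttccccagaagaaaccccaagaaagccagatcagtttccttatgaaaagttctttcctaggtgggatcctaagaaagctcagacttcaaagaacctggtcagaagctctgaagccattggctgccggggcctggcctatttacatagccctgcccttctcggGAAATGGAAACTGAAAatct

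Endothelial markers fell. Of 14 tested none rose and 11 fell (median -1.02), 7 of them in all 3 fits. The counts of rises and falls were 0 and 6 without day 7 replicate 1, 0 and 5 without day 7 replicate 2 and 0 and 7 without day 14 replicate 2. The summed level went from 14732 and 16637 to 11242 and 9821 normalized counts. It was 17707 and 19355 at day 0 and 15395 and 18096 at day 21. Cdh5, the endothelial cadherin, had 63.8 and 83.8 at day 7 and 14.6 and 10.5 at day 14 (-2.47 ± 0.34, adjusted p = 0.000148, -2.27 after removal), a 5.53-fold fall with day 14 well below day 7. It had 177 and 183 at day 0 and 3.20 and 7.78 at day 21, a small part of the summed level on each day. At day 21 the sum was above day 14 and Cdh5 below it, so the sum did not follow Cdh5 and is no measure of endothelial cells. The tyrosine phosphatase gene Ptprb (-1.15) and the receptor gene Tie1 (-1.31) fell in all 3 fits, but Tie1 did not pass with the trend removed and day 14 replicate 2 left out (adjusted p = 0.114). Pecam1, the CD31 gene, fell only as measured (-0.92), and not without day 7 replicate 1, day 7 replicate 2 or day 14 replicate 2 (adjusted p = 0.12, 0.173 and 0.432), and Vwf (0.02) and Emcn (0.31) had no called change.

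Markers of other cell types were mixed. Of 10 pericyte and smooth muscle markers 2 rose and 5 fell (0 and 4 without day 7 replicate 2 and 1 and 5 without day 14 replicate 2), and 2 and 3 after removal; the mural cell receptor genes Pdgfrb (-1.10) and Notch3 (-1.83) fell in all 3 fits. Of 4 tested cardiomyocyte markers, out of 15, 2 rose (1 and 0 without day 7 replicate 1, 1 and 0 without day 7 replicate 2, 1 and 0 without day 14 replicate 1 and 1 and 0 without day 14 replicate 2), and their summed level of 11766 and 11118 at day 7 and 22485 and 28832 at day 14 was mostly Tnnt2, the cardiac troponin T gene (11739 and 11078 at day 7 and 22419 and 28771 at day 14). Myh6, Myh7, Myl3 and Nppb had no read at these times. Of 7 tested Schwann cell and neural markers 0 rose and 3 fell (median -0.35, counts 0 and 1 without day 7 replicate 2 and 1 and 3 without day 14 replicate 1), 1 rose and 2 fell after removal (median -0.08), and 2 fell in all 3 fits, Tubb3 and Ngfr (9.11 and 14.3 at day 7 and 2.73 and 2.34 at day 14), the latter not without day 7 replicate 2 as measured (adjusted p = 0.0885). Tubb3, a tubulin of neurons with a short transcript, fell from 1669.7 and 1742 to 618 and 645 (-1.43 ± 0.09), and its fall was larger after removal (-1.68). Of 6 tested mesothelial and epithelial markers 2 rose and 1 fell (median 0.11, counts 1 and 0 without day 7 replicate 2 and 1 and 0 without day 14 replicate 2), and 1 rose and 1 fell after removal (median -0.00073). Msln, mesothelin, rose from 404 and 400.3 to 1103 and 1254 (1.55 ± 0.32) in all 3 fits. The uroplakin gene Upk1b rose (1.06) only as measured and Lrrn4 fell (-1.12) except with the principal transcript, but neither passed without day 7 replicate 2 (adjusted p = 0.087 and 0.215) or day 14 replicate 2 (0.0511 and 0.102). The epithelial genes Krt8, Krt14 and Cdh1 had no read.

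Transcription factors of cardiac origin were lower in part: 6 of 12 fell and 1 rose, and 4 fell in all 3 fits. As measured, 4 fell when only the libraries of days 7 and 14 were fitted, and 4 with no filter beyond 1 read. Of all tested genes 27.0% fell as measured. Gata4 went from 2673 and 2582 to 1872 and 1605 (-0.60 ± 0.10). Hand2, a regulator of heart and limb mesenchyme, rose by 0.58 in all 3 fits. Tbx5 (0.06) and Wt1 (-0.58) did not pass.

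Cell cycle genes had no common direction. Of 24 mitosis genes 2 rose and 7 fell (1 and 8 without day 7 replicate 1, 4 and 8 without day 14 replicate 1 and 1 and 8 without day 14 replicate 2), and 2 rose and 4 fell in all 3 fits. Prc1, a spindle midzone protein, had 79.2 and 75.8 at day 7 and 34.6 and 40.9 at day 14 (-1.02 ± 0.16). Kif23, a kinesin gene of cell division, had 12.8 and 15.2 at day 7 and 4.56 and 5.84 at day 14 (-1.27 ± 0.31). The cyclin A2 gene Ccna2 rose by 0.54 in all 3 fits (with the trend removed and day 14 replicate 2 left out, adjusted p = 0.219), while the proliferation marker Mki67 fell by 0.95 only as measured (-0.36 after removal). Of 25 DNA replication genes 3 rose and 6 fell (1 and 4 without day 7 replicate 1, 1 and 4 without day 7 replicate 2, 5 and 6 without day 14 replicate 1 and 1 and 7 without day 14 replicate 2). Uhrf1 (-1.05) and the polymerase epsilon gene Pole (-1.21) fell in all 3 fits. Pcna, the sliding clamp, had 0.20 as measured, not passing, and -0.38 after removal (adjusted p = 0.00359). Cdkn1a, the p21 inhibitor of cyclin-dependent kinases, fell by 0.60, and Cdkn1c, the p57 inhibitor, rose by 0.71.

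Groups of genes with short or very long transcripts depended strongly on the length correction. Of 30 ribosomal protein genes 29 rose and none fell (median 0.93); with the trend removed 21 rose (median 0.33), and 18 rose in all 3 fits. Rps24 rose by 1.28 (1.31 after removal, 0.79 with the principal transcript) and Rpl35 by 1.30 (0.72), whereas Rpl4 rose as measured by 0.57 and had 0.05 after removal. Ribosomal protein genes have many processed copies, so their reads may be shared. Of 32 oxidative phosphorylation genes 27 rose and 1 fell as measured, but 8 rose and 4 fell after removal, and the median went from 0.66 to 0.10. Of 25 proteasome genes 23 rose, and 7 rose and 1 fell after removal (median 0.58, then 0.14). Histone genes showed the same, 9 of 14 higher and then 2; as measured the counts of rises and falls were 9 and 0 without day 7 replicate 1 and 8 and 0 without day 7 replicate 2. The long chromatin and nuclear genes were the reverse: 21 of 23 fell as measured and 8 fell and 3 rose after removal. Ep300, the p300 acetyltransferase (-1.41, -0.75 after removal), and the chromatin remodeller gene Arid1a (-1.31, -0.60) fell in all 3 fits, while Kmt2d, a histone methyltransferase, turned from -0.53 to 0.28.

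**Figure D5:**
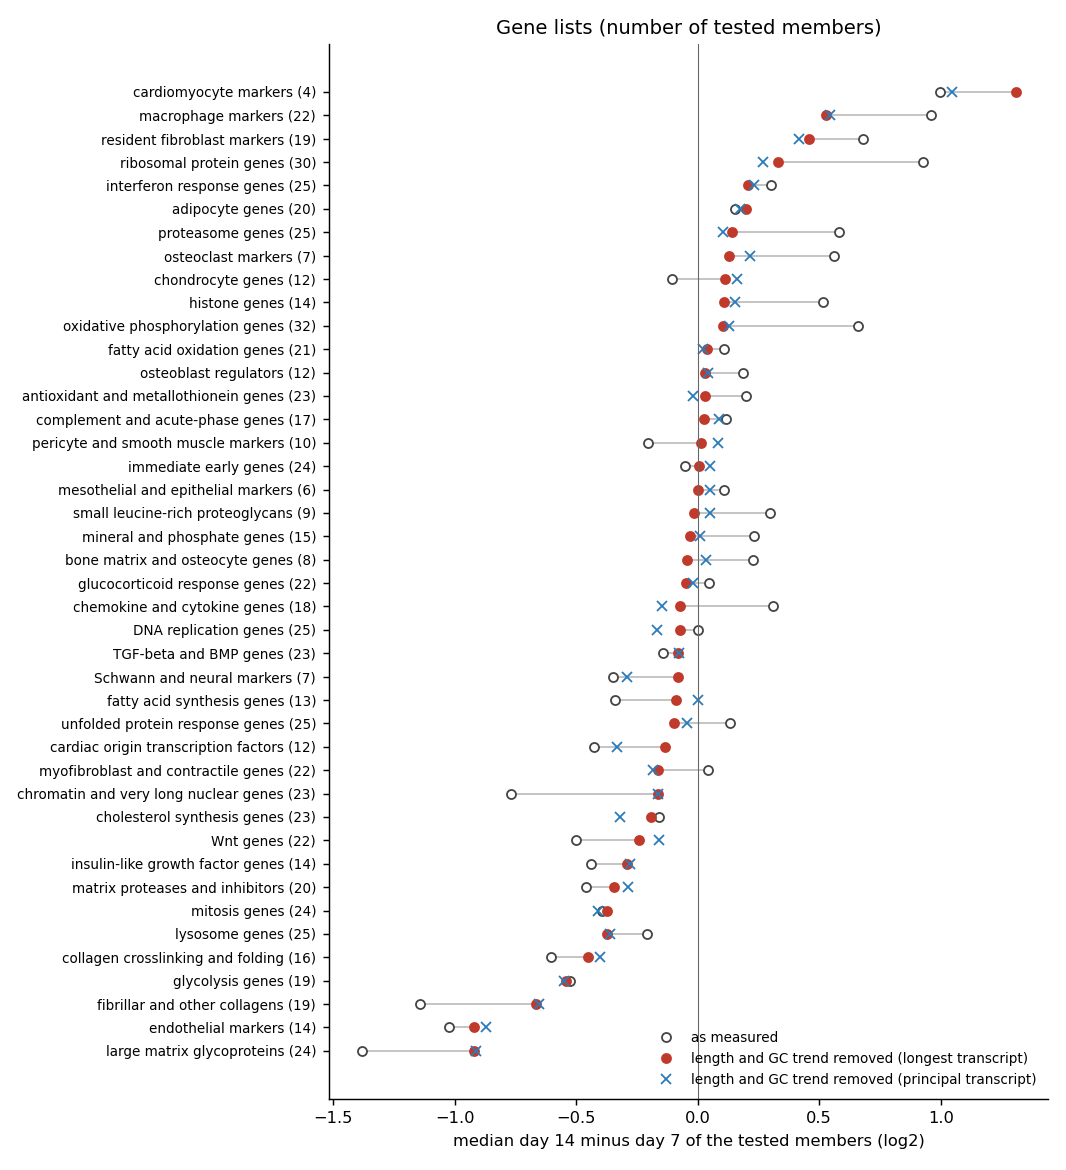
Each row is a gene group with its number of tested members in brackets; marks give the median log2 difference, day 14 minus day 7, as measured (open circles), with the length and GC trend of the longest transcript removed (red) and with the principal transcript (blue crosses). Collagens and large matrix glycoproteins stay below 0 in all 3, at -0.66 and -0.92 after removal, while oxidative phosphorylation genes move from 0.66 to 0.10.

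Glycolysis genes were lower at day 14. Of 19 tested none rose and 13 fell as measured (median -0.52), 15 fell and 1 rose after removal (median -0.54), and 12 fell in all 3 fits. Slc16a3, the lactate exporter, had 133 and 159.6 at day 7 and 38.3 and 43.2 at day 14 (-1.82 ± 0.16, adjusted p = 1.96e-05, -1.47 after removal). Eno1, an enolase with a short transcript, fell from 345 and 384 to 185 and 147 (-1.14 ± 0.14, -1.34 after removal); it has near-identical copies, so its reads may be shared. For Slc16a3 and Eno1 the libraries of the 2 days did not overlap, as for nearly all called genes. The glucose transporter gene Slc2a1 (-0.92), the phosphofructokinase gene Pfkl (-0.85), the pyruvate kinase gene Pkm (-0.60) and the phosphoglucose isomerase gene Gpi1 (-0.52) fell in all 3 fits. Ldha (-0.01, -0.39 after removal) and Pgk1 (-0.21, -0.62) passed only after removal.

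Lipid synthesis genes fell in part. Of 23 cholesterol genes 2 rose and 10 fell (1 and 7 without day 7 replicate 1 and 1 and 8 without day 7 replicate 2), 0 rose and 7 fell after removal, and 5 fell in all 3 fits, among them Srebf2, the transcription factor of sterol synthesis (-1.07), and Dhcr7 (-0.67). Of 13 fatty acid synthesis genes 1 rose and 7 fell (0 and 6 without day 7 replicate 1, 0 and 6 without day 14 replicate 1 and 0 and 7 without day 14 replicate 2), and 3 and 6 after removal. Fads2, a fatty acid desaturase, went from 1303 and 1367 to 646 and 439 (-1.32 ± 0.14, -1.29 after removal), and Scd2 (-1.43), Fasn (-1.32, -0.53 after removal) and Srebf1 (-1.07) fell in all 3 fits. Of 21 fatty acid oxidation genes 7 rose and 2 fell as measured (4 and 2 without day 7 replicate 1), but 4 and 4 after removal and 4 and 6 with the principal transcript. Cpt1a, which admits fatty acids to mitochondria, fell by 0.95.

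Lysosome genes fell in part, 10 of 25 as measured (2 higher; rises and falls 2 and 6 without day 7 replicate 2) and 15 after it (4 higher). The cholesterol exporter gene Npc1 (-1.18) and the progranulin gene Grn (-0.63) fell in all 3 fits, and Npc2 (0.58) and Ctsh (0.68) rose. Genes of the unfolded protein response were divided, 9 of 25 higher and 7 lower as measured (8 and 3 without day 7 replicate 1 and 7 and 3 without day 7 replicate 2) and 4 and 6 after removal: the chaperone gene Hspa5 rose by 0.49 and Manf by 0.86, and Sesn2, a stress-induced inhibitor of mTORC1 signalling, fell by 0.96, each in all 3 fits. Of 23 antioxidant genes 11 rose and 3 fell as measured (median 0.20, counts 8 and 1 without day 7 replicate 1, 10 and 1 without day 7 replicate 2 and 10 and 1 without day 14 replicate 2), 7 and 4 after removal (median 0.03), and 4 and 1 in all 3 fits. The glutathione peroxidase genes Gpx1 (1.03) and Gpx4 (1.08) rose and Nfe2l2, the gene of the antioxidant regulator NRF2, fell (-0.65) in all 3 fits.

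Signalling genes showed changes at several levels. Among insulin-like growth factor genes 3 of 14 rose and 7 fell, with 2 and 6 in all 3 fits. Of the binding proteins, Igfbp2 went from 341 and 393 to 1430.4 and 1889.9 (2.16 ± 0.15, adjusted p = 5.6e-06, 1.86 after removal), Igfbp4 rose by 1.21 and Igfbp5 fell by 1.04. The ligand gene Igf1 (-0.71), the receptor gene Igf2r (-1.64) and the adaptor gene Irs1 (-1.18) fell in all 3 fits, but Igf1 did not pass with the length trend alone removed (-0.23, adjusted p = 0.0892).

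In the TGF-beta and BMP pathways 6 of 23 genes rose and 11 fell, with 5 and 7 in all 3 fits. The ligand genes Tgfb1 (-0.75) and Bmp6 (-1.17), the receptor gene Tgfbr2 (-1.05) and the signal transducer gene Smad3 (-1.14 ± 0.11, from 1118 and 1130.4 to 538 and 485) fell. The BMP target genes Id2 (1.07) and Id3 (0.82) and the secreted antagonist genes Chrdl1 (1.45) and Fst (0.99) rose in all 3 fits. Of 22 Wnt genes 4 rose and 11 fell (2 and 9 without day 7 replicate 2). The co-receptor gene Lrp5 (-1.39 ± 0.18, -0.69 after removal) and Wisp1 (-1.22) fell in all 3 fits, while the secreted modulator gene Sfrp4 (1.21) rose. The pathway's feedback target Axin2 (-0.40) did not pass.

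Glucocorticoid response genes had no common direction, 7 of 22 higher and 5 lower as measured (4 and 3 without day 7 replicate 1 and 5 and 2 without day 7 replicate 2), 5 and 8 after removal, and 4 and 3 in all 3 fits. Tsc22d3, which encodes the glucocorticoid-induced leucine zipper protein, rose from 5245 and 4548 to 9393 and 9937 (0.98 ± 0.10), and Klf9 fell from 3389.5 and 3165 to 2235 and 1249 (-0.97 ± 0.20), both in all 3 fits; the Klf9 difference was -1.39 without day 14 replicate 1 and -0.55 without replicate 2. Of the acute-phase and complement genes 3 of 17 rose and 1 fell as measured (3 and 3 without day 14 replicate 1), and 1 and 2 after removal. C3, the central complement component, fell from 122157 and 131317 to 55245 and 40792 (-1.42 ± 0.18), and Apoe rose by 0.83. Chemokine and cytokine genes gave 7 higher and 1 lower of 18 (7 and 2 without day 14 replicate 1 and 4 and 1 without day 14 replicate 2) but 3 and 3 after removal. Csf1, the macrophage growth factor, fell by 0.66, and Cxcl16 rose by 0.57 in all 3 fits. Immediate early genes numbered 5 higher and 4 lower of 24 as measured (3 and 4 without day 7 replicate 1 and 3 and 3 without day 7 replicate 2) and 3 and 7 after removal. Klf4 (-0.64) was lower and Junb (0.55) higher in all 3 fits, but Junb did not pass without day 7 replicate 1 (adjusted p = 0.0971) or with the length trend alone removed (0.326).

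Against the length trend, 132 genes of the longest class of transcripts rose (4.92%) and 105 of the shortest fell (3.91%). The 6 largest rises of the longest class included the noncoding RNAs Neat1, Malat1, Meg3 and Xist. Neat1, the scaffold of paraspeckles, had 1926 and 1435 at day 7 and 6330.3 and 9766 at day 14 (2.24 ± 0.23, 2.84 after removal), and Malat1, a nuclear speckle RNA, had 762 and 657 at day 7 and 2878 and 3122 at day 14 (2.08 ± 0.21). Meg3 (82.9 and 71.3 at day 7 and 282 and 323 at day 14) and Xist, the X-inactivation RNA (626 and 415 at day 7 and 1879.6 and 1859 at day 14), rose by 1.96 and 1.87. All 4 were higher in both day 14 libraries than in both day 7 libraries, which the rule that named them required. Strand was not given for the counting, so reads of Xist and its antisense partner Tsix cannot be told apart. Timp4 and the noncoding host gene Snhg11 were the other 2. Among the shortest transcripts, the largest falls with Tubb3 included the thioesterase gene Acot5 (-1.58, -1.96 after removal), the proton pump subunit gene Atp6v0e2 (-1.45, -1.81) and Ndufa4l2, a hypoxia-induced mitochondrial protein gene (273 and 316 at day 7 and 102 and 115 at day 14, -1.43, -1.89 after removal).

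The falls largest in size after removal of the trend included a clustered gene family. Pcdhgc5, a gamma-protocadherin adhesion gene, had 254 and 251 at day 7 and 57.4 and 24.5 at day 14 (-2.72 ± 0.28, -2.21 after removal; -3.31 without day 14 replicate 1 and -2.12 without replicate 2). All 22 tested genes of the cluster, grouped after their values were seen, fell in all 3 fits, with a median of -1.88 as measured and -1.54 after removal. They share their last exons, so their reads may be shared and they are not 22 independent measurements. Small nucleolar RNA host genes, also grouped after their values were seen, went the other way, with 11 of 11 higher (median 1.41) and 7 in all 3 fits (median 0.59 after removal).

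Fndc1, a fibronectin type III domain gene, fell from 3750.2 and 3986 to 788 and 565 (-2.53 ± 0.16, adjusted p = 2.99e-06, -2.04 after removal), with 14529 and 15959.7 at day 0 and 2181 and 2898 at day 21. Sorcs2, a sortilin-related receptor gene, fell from 121 and 136 to 25.5 and 23.4 (-2.35 ± 0.31). Several other large falls differed in size between the day 14 libraries. The transcription factor gene Klf7 had 70.1 and 82.0 at day 7 and 30.1 and 5.84 at day 14 (-2.40 ± 0.54; -3.49 without day 14 replicate 1 and -1.31 without replicate 2), not passing with the trend removed and replicate 2 left out (adjusted p = 0.0624), and Zbed6 had 230.5 and 224 at day 7 and 103 and 18.7 at day 14 (-2.33 ± 0.52; -3.53 and -1.13). Glis3 (-2.30 ± 0.43; -3.25 and -1.35) and the desaturase gene Scd3 (-2.16 ± 0.40; -3.02 and -1.30) showed the same, so for these genes the size was not shared by the day 14 libraries. The rule that named the largest falls required both day 14 libraries to lie below day 7, so their shared direction adds nothing.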

How the data were processed

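Per the labels' protocols, a column kit (RNeasy Plus Mini) gave the RNA of mouse cardiac fibroblasts, and libraries followed Illumina's usual procedure. The authors deposited 1 table of normalized counts per gene and library (a signal: reads divided by a size factor). HTSeq 0.6.1, TopHat2 2.0.11, DESeq and the mm9 build are listed in the submitters' processing notes. Every value was a whole multiple of the value of 1 read in its library (100% within 0.01), which gave the reads. Depth was 14932213 to 20225968 reads over the 4 libraries of days 7 and 14. For strand and for the DESeq version, nothing is given in the sources used here.

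Log2 of the value plus 1 was fitted with limma 3.58.1 (trend; R 4.3.3) over all 8 libraries, 4 groups of 2, with 4 residual degrees of freedom. Genes with at least 10 in at least 2 libraries were tested, with Benjamini-Hochberg adjustment and calls at 0.05. Transcript length and GC content were taken from GENCODE M21 through the symbol or a single synonym for 23640 of 24015 genes (98.4%); the trend was a natural spline with 4 degrees of freedom on length and on GC content, subtracted from each library. Removal by a trend over all genes can also take away changes that run with length. In simulated data for day 14 against day 7 (13421 genes, length trend planted), 3276 of 13221 unaltered genes were called without removal and 4 with it. The fit with removal recovered 50.7% of 1.5-fold, 77.5% of 2-fold and 98.4% of 4-fold changes. The planted trend was a straight line on the longest transcript, equal in both day 14 libraries and without a GC trend. Changes of 1.5-fold, 2-fold and 4-fold were planted in 67, 71 and 62 genes, drawn without regard to length. In the measured data the slopes differed (-0.295 and -0.441) and 42.0% of genes were called after removal. The 4 calls are therefore not an error rate for the measured data, and the recovered shares are not its power.

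Alternatives were another pseudocount (5), no filter or a filter at 50, TMM scaling, edgeR 4.0.16 and DESeq2 1.42.0 on the recovered reads, only the libraries of days 7 and 14, a replicate block, removal of the length trend alone and leaving out each library. Removal with the principal transcript, and removal without day 14 replicate 2, were added after the data were seen. The members and the gene lists were chosen with earlier results of these data known. Genes are named for being the 10 largest rises or falls as measured or after removal (mean of at least 50, no overlap, predicted genes left out), the 6 largest against the length trend, or up to 4 called and 2 uncalled members of a list; other list members are further examples, chosen after their values were seen. A few genes that this rule names are not reported here. Promoters are from RefSeq (GRCm38.p6) and carry no coordinates of the mm9 build.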

Additional observations from a re-analysis of the deposited data

How the results depend on the processing

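The counts of genes called higher or lower stayed within 1.5 times of the reported ones under every alternative that used all 4 libraries, including edgeR on recovered reads (7167 in all) and DESeq2 (6157). The count of 2-fold changes was 1415 (728 higher, 687 lower) as reported. It was 815 (423 and 392) with the length trend removed, 752 (403 and 349) with the length and GC trend removed, 743 (399 and 344) with a replicate block as well, and 721 (370 and 351) with the principal transcript. Without 1 library it ranged from 841 to 2096, 419 to 1032 higher and 422 to 1064 lower, with both extremes set by a day 14 library. Leaving out day 14 replicate 2 and removing the trend gave 4077 calls (1681 higher, 2396 lower) and 468 of at least 2-fold (251 and 217). The length slope was -0.225 with the median transcript length in place of the longest, and -0.441 to -0.295 without 1 library.

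The signs of the differences of Mgp, Acta2, Pcna and Kmt2d changed when the length trend was removed. Mgp did not pass after removal of length and GC, and Acta2 and Pcna did not pass as measured. A change of sign alone does not show a reversed direction. With the length trend alone removed the differences of the 4 genes were -0.088, -0.26, -0.26 and 0.043. With length and GC removed they were -0.16, -0.28, -0.38 and 0.28, the same values with the replicate block. With the principal transcript Mgp, Pcna and Kmt2d were -0.15, -0.34 and 0.26. With length and GC removed and day 14 replicate 2 left out as well, the 4 genes were -0.056, -0.37, -0.31 and 0.29. Des, Ngfr and Upk1b did not pass with DESeq2 (adjusted p = 0.0528, 0.0531 and 0.0587), and Pecam1 passed with neither DESeq2 nor edgeR (0.0954 and 0.0561). The cause of these dependences was not tested.

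Deviations of same-numbered libraries of days 7 and 14 correlated at 0.0737 across genes, and the 6 pairs of days at -0.0356 to 0.0737. With 2 libraries a day, these values cannot tell whether same-numbered libraries share a culture or animal. The replicate block gave 6960 calls (3326 higher, 3634 lower), 1397 of at least 2-fold. With the block and the trend removed, 9 resident fibroblast markers rose and 3 fell, and Lum and Tcf21 did not pass (adjusted p = 0.0564 for both). Depth limits genes with few reads, such as Adipoq, Kif23 and Car3. A p that misses the threshold does not show that a gene did not change.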
